A study of Mus musculus with 7 samples.

Results

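RNA splicing and hnRNP genes were followed through a comparison of open chromatin in T follicular helper (Tfh) cells of lupus-prone mice. They were chosen by name, as every protein-coding gene whose symbol starts with Hnrnp, Srsf, Sf3a, Sf3b, Prpf or Snrp, or with Rbm and a digit. Of 104 such mouse genes in RefSeq, 42 had a peak in the list of sites with higher coverage after IFNAR1 blockade, and each had 1 peak. The list as a whole held 6395 peaks, at 4616 protein-coding genes and at other sites.

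The data came from ATAC-seq, which maps accessible DNA by where a transposase can insert sequencing adapters. Tfh cells, the CD4 T cells that help germinal centre B cells, were sorted from spleens of B6/Sle1.Yaa mice (B6.Sle1.Yaa in the strain label) by the surface markers CD4 and CD44, absence of GITR, low PSGL-1, and a high level of CXCR5 and of PD-1. The treated mice (4 samples) were given antibody to IFNAR1 (part of the receptor through which type I interferon signals), and the control mice (3 samples) received anti-rat IgG, both 2 times a week for 4 weeks. The time label of all samples reads 5 months and 4 weeks after treatment, none was infected, and all carried the Sle1 lupus susceptibility interval and Yaa, a translocation of X-linked genes to the Y chromosome, so no group without these alleles stood beside them. The antibody is labelled anti-IFNA1 on the samples and described as IFNAR1 blockade in the title, and whether a sample was 1 mouse or a pool is not said.

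The deposited values were 1 set per peak over both sides, taken here as the pooled libraries of each treatment. Values of single samples were not analysed here, so nothing below carries a spread between mice, and no test between the treatments was possible. Losses, that is sites with less coverage than in control IgG cells, were also not analysed here. Depth differed between the sides by a ratio of 3.54, anti-IFNAR1 over control IgG, where samples of equal depth would give 1.33, and the part of this gap in the results was not tested. A change in the makeup of the sorted cells and a change in accessibility per cell cannot be told apart. Of 12 Tfh and CD4 T cell markers 9 had a listed peak, all but Cxcr5, Icos and Il21. The counts were 0 of 7 B cell markers, 0 of 6 CD8 T and NK cell markers and 2 of 7 myeloid markers (Cebpa and Cd14). The share of all protein-coding genes was 21.1%, and the part of these cell types in the results was not tested.

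Splicing removes introns from nascent RNA on the spliceosome, a machine of small nuclear ribonucleoproteins (snRNPs) and many helper proteins. The hnRNP proteins coat nascent transcripts, often block the use of nearby splice sites, and also act in RNA export and stability, whereas SR proteins (Srsf genes) bind exons and usually promote their inclusion. SF3A and SF3B belong to the U2 snRNP, which recognises the branch point, the Snrp genes encode the Sm ring and proteins of the U1 and U2 snRNPs, and the Prpf genes encode proteins of the later complexes. The Rbm genes share an RNA recognition motif and do varied work. In T cells, alternative splicing of Ptprc, which encodes CD45, changes with activation and memory, and hnRNP L and hnRNP LL are regulators of it.

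Promoter sequences are shown for the member with the smallest q of the Hnrnp, Srsf, Sf3b, Prpf and Rbm families apart from Rbm12b2, for which Rbm33 stands, and for Snrpa, whose start lies in a peak that the file gives to a neighbour. Each is a RefSeq window (GRCm38.p6, the same build as mm10) of 250 bases before and 50 from the start site on, written 5′ to 3′ on the gene's strand. Capitals mark matches on either strand to an ETS motif (CCGGAAGT), an NF-Y box (CCAAT), a GC box (GGGCGG), an NRF1 motif (GCGCATGC), a CRE (TGACGTCA) or a YY1 motif (AAGATGGCG).
Hnrnpa3 (chr2:75659009-75659308, plus strand): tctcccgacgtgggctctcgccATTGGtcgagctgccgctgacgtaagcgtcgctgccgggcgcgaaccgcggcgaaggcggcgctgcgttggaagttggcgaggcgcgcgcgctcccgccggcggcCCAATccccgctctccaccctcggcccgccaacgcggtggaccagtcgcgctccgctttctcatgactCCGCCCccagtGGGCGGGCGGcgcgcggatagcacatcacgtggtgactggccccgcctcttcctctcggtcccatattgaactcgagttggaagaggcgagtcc
Srsf10 (chr4:135855821-135856120, plus strand): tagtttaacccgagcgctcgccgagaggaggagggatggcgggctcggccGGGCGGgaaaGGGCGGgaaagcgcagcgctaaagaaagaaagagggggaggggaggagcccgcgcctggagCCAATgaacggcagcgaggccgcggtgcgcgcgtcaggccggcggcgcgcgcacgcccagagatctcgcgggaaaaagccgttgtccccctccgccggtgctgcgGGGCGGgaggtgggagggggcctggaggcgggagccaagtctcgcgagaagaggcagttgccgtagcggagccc
Sf3b2 (chr19:5295406-5295705, minus strand): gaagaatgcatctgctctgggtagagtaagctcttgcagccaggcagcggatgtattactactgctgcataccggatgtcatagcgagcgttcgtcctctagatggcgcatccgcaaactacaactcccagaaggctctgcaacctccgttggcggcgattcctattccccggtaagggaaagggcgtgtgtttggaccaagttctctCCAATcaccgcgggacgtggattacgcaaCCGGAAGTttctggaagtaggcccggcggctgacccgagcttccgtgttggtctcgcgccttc
Prpf38b (chr3:108911680-108911979, minus strand): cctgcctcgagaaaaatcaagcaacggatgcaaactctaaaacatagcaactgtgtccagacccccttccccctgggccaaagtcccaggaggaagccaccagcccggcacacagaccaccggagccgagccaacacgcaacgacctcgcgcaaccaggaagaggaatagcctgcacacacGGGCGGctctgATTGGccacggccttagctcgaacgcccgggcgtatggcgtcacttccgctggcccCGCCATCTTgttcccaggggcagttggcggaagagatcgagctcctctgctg
Rbm33 (chr5:28316939-28317238, plus strand): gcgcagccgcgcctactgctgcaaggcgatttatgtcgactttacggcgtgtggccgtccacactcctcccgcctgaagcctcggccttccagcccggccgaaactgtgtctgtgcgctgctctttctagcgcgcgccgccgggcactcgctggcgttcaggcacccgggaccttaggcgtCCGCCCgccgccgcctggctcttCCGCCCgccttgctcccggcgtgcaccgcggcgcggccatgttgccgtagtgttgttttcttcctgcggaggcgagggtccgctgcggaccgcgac
Snrpa (chr7:27196222-27196521, minus strand): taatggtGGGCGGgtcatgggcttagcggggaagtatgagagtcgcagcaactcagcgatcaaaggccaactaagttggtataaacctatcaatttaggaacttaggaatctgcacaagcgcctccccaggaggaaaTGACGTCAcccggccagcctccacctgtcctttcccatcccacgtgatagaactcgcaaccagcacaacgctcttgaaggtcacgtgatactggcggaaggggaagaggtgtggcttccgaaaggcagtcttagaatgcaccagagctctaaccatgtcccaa

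The Hnrnpa3 and Srsf10 windows held several GC boxes, beside NF-Y boxes at Hnrnpa3 and an NF-Y box at Srsf10. The Sf3b2 window held an NF-Y box followed by an ETS motif that begins 13 bases before the start. The Prpf38b window held a YY1 motif across the start site, and the Snrpa window a CRE that begins 113 bases before it.

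Genes of this name rule were on the list more often than protein-coding genes in general. A listed peak was assigned to 42 of 104 genes, which is 40.4% (Wilson 95% interval 31.5 to 50, counting error only), beside 21.1% of all 21896 protein-coding genes in RefSeq. For peaks at transcription start sites (TSS) alone, 41 members were listed, beside 18.5% of all protein-coding genes. The members' start windows that overlap their listed peak held a median of 27 CpG, beside 13 in all protein-coding windows. Among genes with at least 20 CpG in a start window, 40 of 65 genes under the rule (61.5%) had a listed peak within 1 kb of a RefSeq start, beside 41.2% of all 6802 such genes, a comparison chosen after the values were seen.

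The families differed in how many of their genes were listed. The Hnrnp family led with 15 of 21 genes (71.4%, interval 50 to 86.2). The Srsf family had 5 of 11 (45.5%, 21.3 to 72.0), the Prpf family 5 of 13 (38.5%, 17.7 to 64.5) and the Rbm genes 13 of 38 (34.2%, 21.2 to 50.1). These 3 intervals overlap each other and that of the Hnrnp family at its lower end. Of the U2 snRNP families, Sf3a had 1 of 3 genes and Sf3b 2 of 6 (33.3% each). The Snrp genes had the lowest share by assigned peaks, with 1 of 12 (8.33%, 1.49 to 35.4). This interval lies wholly below that of the Hnrnp family, but differences between families were not tested. The Snrp share also depends on assignment, being 4 of 12 (33.3%) once peaks near a start but given to a neighbour were counted.

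**Figure D1:**
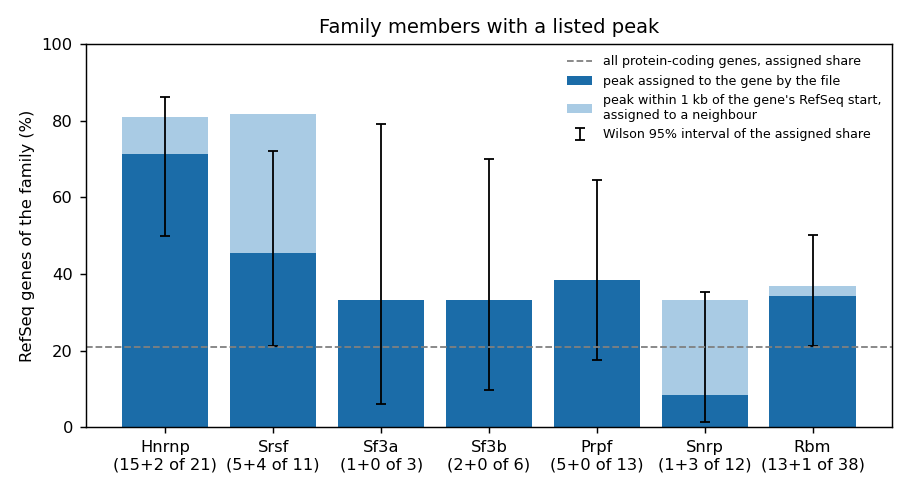
Share of each family's RefSeq genes with a listed peak, in percent: dark bars are peaks the file assigned to the gene, with Wilson 95% intervals for counting error, and light bars add genes whose RefSeq start lies within 1 kb of a peak assigned to a neighbour. The Hnrnp bar stands highest by assigned peaks at 71.4%, and the Srsf bar climbs from 45.5% to 81.8% with neighbours counted. The dashed line marks the 21.1% of all protein-coding genes by assigned peaks alone, so it is the counterpart of the dark bars only.

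Assignment to a neighbour accounted for part of the gaps. For 10 genes without an assigned peak, a listed peak lay within 1 kb of the gene's RefSeq start, and the file had given it to a gene nearby. Among them were 4 SR protein genes (Srsf1, Srsf2, Srsf7 and Srsf11), 2 hnRNP genes (Hnrnpa2b1 and Hnrnpdl), 3 Snrp genes (Snrpa, Snrpd2 and Snrpd3) and Rbm14. With these included, 17 of 21 Hnrnp genes (81.0%) and 9 of 11 Srsf genes (81.8%) had a listed peak, assigned or within 1 kb of a start. The Snrp count became 4 of 12 (33.3%), the Rbm count 14 of 38 (36.8%), and the total 52 of 104 (50%). This combined count was not made for all protein-coding genes. When RefSeq starts alone were used, 47 of the 88 genes with a start entry (53.4%) had a peak within 1 kb, beside 23.4% of all 17491 protein-coding genes with an entry.

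These 10 genes were singled out after their values were seen. Snrpa, which encodes the A protein of the U1 snRNP, had the strongest of their peaks, assigned to BC024978 on the opposite strand. It spanned chromosome 7 from 27195748 to 27196410. Over its summit lay 88 anti-IFNAR1 fragments against 1 control IgG fragment, and anti-IFNAR1 fragments given below are likewise counts at the summit. Its fold was 12.9 at a q of 1.16e-20 (rank 19 of 6395) in the authors' deposited table. That fold was above the fold of every peak assigned to a member. Hnrnpa2b1 shares a divergent start region with Cbx3, a heterochromatin protein gene, which is known in human as an element that keeps chromatin open in most tissues. Its peak held 73 anti-IFNAR1 fragments against a control IgG background of 5.66, a fold of 3.25. Hnrnpdl, assigned to Enoph1, held 93 against 3.30, a fold of 6.34. The Srsf2 start, in a peak assigned to Mfsd11, held 107 against 8.50, a fold of 3.29.

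The other SR protein starts had folds of 5.87 at Srsf7, 5.46 at Srsf11 and 4.67 at Srsf1. The Sm protein genes Snrpd3 and Snrpd2 had peaks that ended 141 and 106 bp from their starts, with folds of 4.70 and 3.89, and the Rbm14 peak lay 40 bp from its start with a fold of 3.33. Neighbours that share a start region cannot be told apart by these peaks. The reverse also held for 6 members, whose peak contained a RefSeq start of another gene. These were Hnrnpk (with Rmi1), Hnrnpa1 (with Cbx5), Sf3a2 (with Plekhj1), Prpf4 (with Cdc26), Prpf4b (with Gm36839) and Rbm33 (with Gm35602).

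No listed peak was found by either count for 52 genes. In the Hnrnp family these were Hnrnpc, Hnrnpd, Hnrnpul2 and Hnrnpa1l2-ps2, and in the Srsf family Srsf3 and Srsf12. Sf3a1, Sf3a3, Sf3b3, Sf3b4, Sf3b5 and Sf3b6 were absent from the U2 snRNP families. The Prpf genes without a peak were Prpf3, Prpf8, Prpf18, Prpf19, Prpf31, Prpf38a, Prpf39 and Prpf40b, among them the gene for PRP8, the scaffold of the catalytic core. The Snrp genes were Snrpa1, Snrpb2, Snrpc, Snrpd1, Snrpe, Snrpf, Snrpg and Snrpn. The Rbm genes were Rbm3, Rbm4, Rbm7, Rbm8a, Rbm10, Rbm11, Rbm12, Rbm12b1, Rbm15b, Rbm17, Rbm18, Rbm19, Rbm20, Rbm22, Rbm24, Rbm26, Rbm27, Rbm28, Rbm31y, Rbm34, Rbm42, Rbm44, Rbm45 and Rbm46. A gene outside the list may be open, equally or more so, on both sides, since the list holds gains over the control only. Of the 62 genes without an assigned peak, 50 had a RefSeq start entry, so the search near starts could not be made for the others.

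Pileup and fold describe each listed peak. The pileup is the number of anti-IFNAR1 fragments over the summit, scaled down to the depth of the control side by the authors' caller. The fold is the pileup over the local control background, with 1 added to each, and pileup, fold and q come from the authors' deposited table throughout. Fragments before scaling were recovered from the pileup, so they too are counts over the summit and not over the whole peak. The control background is a count at the site or, where larger, an average over a surrounding window or the genome.

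Members were higher than the list in coverage and close to it in fold. Their median pileup was 15.4 (range 3.96 to 39.3), beside 11.6 over all listed peaks and 13.0 over TSS peaks of protein-coding genes. Their median control background was also higher, at 2.80 fragments beside 1.49 over the list and 2 over TSS peaks of protein-coding genes. The median fold was 4.72 (range 2.81 to 9.41), beside 4.74 over the list and 4.78 over TSS peaks of protein-coding genes. A fold of at least 5 was reached by 18 of 42 members (42.9%), beside 42.2% of all listed peaks. Members thus lay near the background in fold, with 21 of 42 above the list's median, while 30 of 42 were above its median pileup. Among the top 10% of the list were 11 members by pileup and 3 by fold.

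**Figure D2:**
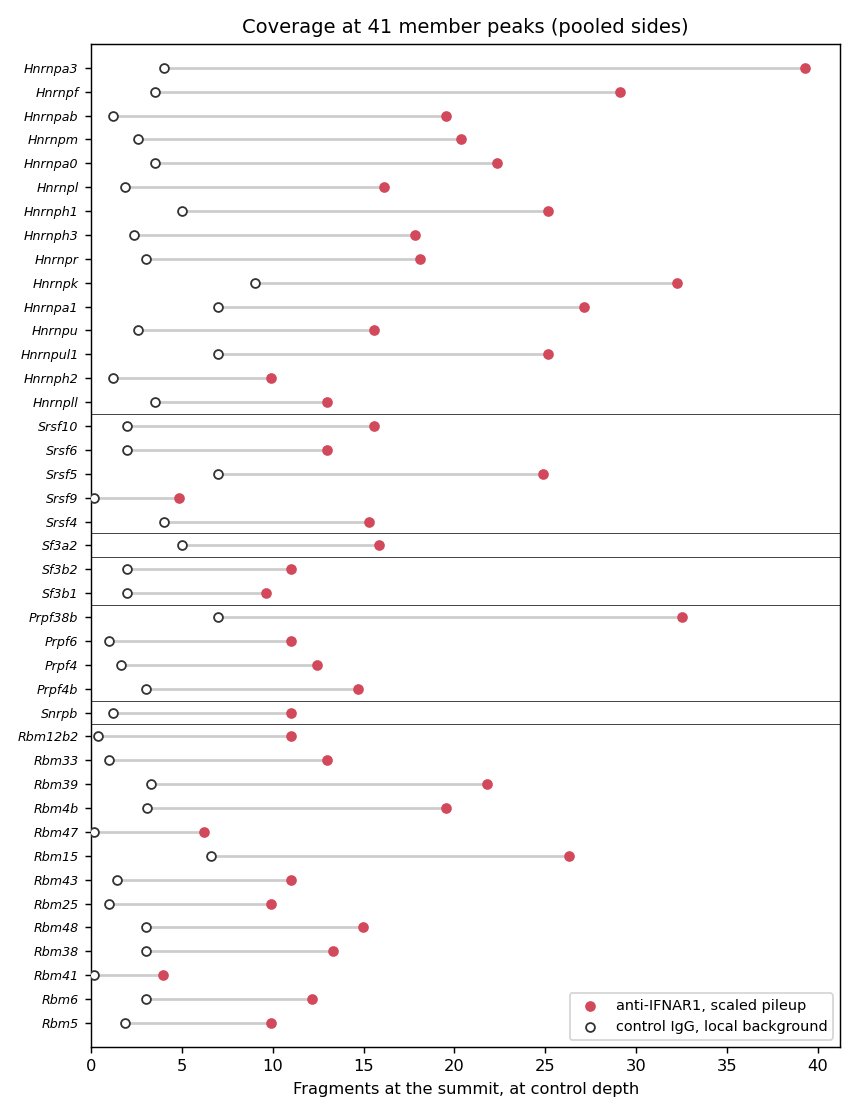
Summit coverage of 41 of the 42 member peaks in fragments at control depth, with the anti-IFNAR1 pileup as filled points and the control IgG background as open points, ordered by family and by q. Anti-IFNAR1 pileups range from 3.96 at Rbm41 to 39.3 at Hnrnpa3, and control backgrounds from 0.132 to 9 at Hnrnpk.

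The Hnrnp peaks had the highest coverage of the families with at least 5 peaks. Their median pileup was 20.4 (range 9.89 to 39.3), and 14 of 15 lay above the list's median. A pileup of at least 20 was reached by 8 Hnrnp peaks and by 12 members in all (28.6%). The share was 12.5% for the list and 16.1% for TSS peaks of protein-coding genes. Hnrnp peaks were also wide, with a median of 937 bp beside 630 bp for all members. The median was 539 bp for the list and 575 bp for TSS peaks of protein-coding genes. Of the 9 members wider than 1 kb, 7 were Hnrnp genes. Their median fold was 5.00 (range 3.08 to 9.41).

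Hnrnpa3, an A/B type hnRNP, had the smallest q of the members. Its TSS peak on chromosome 2 from 75659078 to 75659875 held 139 anti-IFNAR1 fragments against 4 control IgG fragments, and its fold was 8.06 at a q of 1.36e-20 (rank 20). Scaled for depth the ratio was 9.82 (exact 95% interval 3.75 to 36.6). Such intervals hold for counting error alone, compare the libraries and not the treatments, and rest on the same counts that put the peak on the list. Hnrnpf, whose protein binds runs of G in RNA, followed with 103 fragments against a background of 3.54 and a fold of 6.63 (chromosome 6, 117906792 to 117908034, q = 2.32e-13). Hnrnpab, an A/B type relative, had the highest fold of the members at 9.41, from 69 anti-IFNAR1 fragments against a background of 1.18 (chromosome 11, 51605958 to 51606861, q = 2.33e-13).

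Hnrnpll was the exception among the members in its position. Its product regulates Ptprc exons in activated and memory T cells, and its peak lay in coding exon 1, 384 bp from the TSS (chromosome 17, 80061360 to 80061844). It held 46 anti-IFNAR1 fragments against a control IgG background of 3.54, a fold of 3.08 and the largest q of the Hnrnp peaks (0.0170). Hnrnpl, the related Ptprc regulator, had 57 against 1.84, a fold of 6.02, in a peak whose summit lay 2028 bp upstream of its RefSeq start. The file itself gave that peak a distance of 0 bp to a TSS. High coverage did not go with a large fold throughout the family. Hnrnpk, a KH domain protein that binds C-rich RNA, had 114 anti-IFNAR1 fragments against 9 control IgG fragments, a fold of 3.32 and a ratio of 3.58 (1.82 to 8.03). Hnrnpa1, a classic antagonist of SR proteins, had 96 against 7, a fold of 3.52, and Hnrnpul1 89 against 7, a fold of 3.27.

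The other Hnrnp peaks had folds within the range already given. Hnrnpm, Hnrnph3, Hnrnpa0 and Hnrnph2 had folds of 5.94, 5.60, 5.14 and 5.00, and Hnrnpr, Hnrnpu and Hnrnph1 had 4.77, 4.60 and 4.36. The coverage behind them ran from 35 anti-IFNAR1 fragments at Hnrnph2 to 89 at Hnrnph1. Hnrnpl, Hnrnpk, Hnrnpa1, Hnrnpul1 and the genes of this paragraph are named beyond the rule for named genes, after their values were seen.

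**Figure D3:**
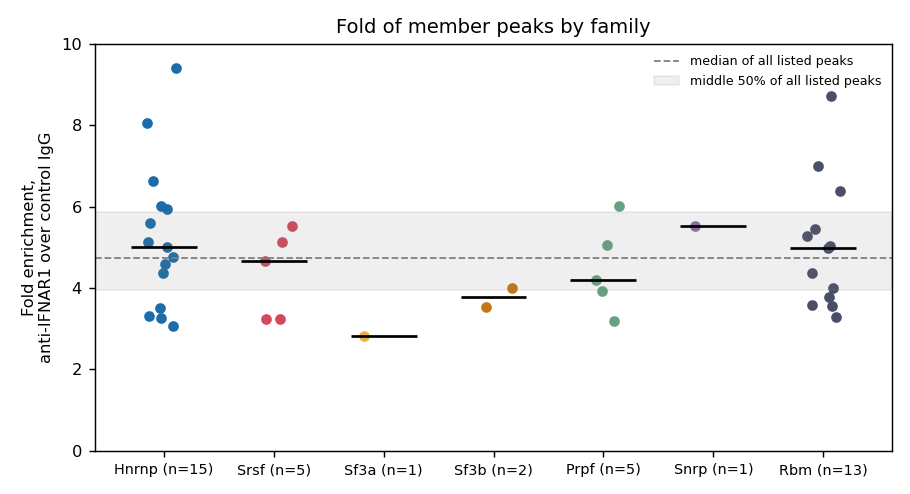
Fold enrichment of each member peak, anti-IFNAR1 over control IgG, by family, with a bar at the family median, the dashed line at the list's median of 4.74 and grey for the middle 50% of all listed peaks. Hnrnp and Rbm peaks spread widest, up to 9.41 and 8.73, and the 3 Sf3a and Sf3b peaks all lie below the list's median.

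The SR protein peaks were close to the list in fold, with a median of 4.67 (range 3.23 to 5.52). Srsf10, an SR protein that turns into a general repressor of splicing when dephosphorylated, had 55 anti-IFNAR1 fragments against 2 control IgG fragments (chromosome 4, 135855651 to 135856144). Its fold was 5.52, its q 2.19e-06 and its ratio 7.77 (2.05 to 65.8), so 2 control fragments leave the size loosely fixed. Srsf6 had 46 against 2 (fold 4.67, chromosome 2, 162930954 to 162931838), and Srsf5 had 88 against 7 (fold 3.23, chromosome 12, 80945515 to 80946191). Both encode SR proteins that activate exons. Srsf4 had the largest q of the family, 0.00569, with 54 against 4 and a fold of 3.25 (chromosome 4, 131873468 to 131873963). The remaining peak, at Srsf9, held 17 fragments with the background at the genome rate of 0.132.

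The U2 snRNP peaks lay low in the list. Sf3b1 encodes the largest SF3B subunit, which holds the branch point and is often mutated in human myelodysplasia. Its peak held 34 anti-IFNAR1 fragments against 2 control IgG fragments (chromosome 1, 55027195 to 55027834), a fold of 3.54, a q of 0.0352 and a ratio of 4.81 (1.23 to 41.3). Sf3b2, another SF3B subunit gene, had 39 against 2 (chromosome 19, 5295191 to 5295631), a fold of 4.01, a q of 0.00184 and a ratio of 5.51 (1.43 to 47.1). Sf3a2, which encodes an SF3A subunit, had 56 against 5 (chromosome 10, 80798208 to 80799236), with the lowest fold of the members at 2.81, and its q of 0.0496 equals the largest of the whole list. All 3 folds lay below the list's median of 4.74.

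The Prpf peaks had a median fold of 4.19. Prpf38b, a relative of the yeast splicing factor Prp38, had by far the highest coverage of the family, with 115 anti-IFNAR1 fragments against 7 control IgG fragments (chromosome 3, 108911205 to 108911778). Its fold was 4.19, its q 1.21e-08 and its ratio 4.64 (2.18 to 11.8). Prpf6 encodes the protein that joins U5 to U4/U6 in the tri-snRNP. It had 39 against 1, a fold of 6.01 and a ratio of 11 (1.87 to 446) on chromosome 2 from 181601259 to 181601707, an interval left wide by the lone control fragment. Prpf4, a U4/U6 protein gene, had 44 against a background of 1.65 and a fold of 5.07 (chromosome 4, 62407787 to 62408631). The kinase gene Prpf4b had a fold of 3.92. Snrpb, which encodes the Sm ring protein SmB, was the sole Snrp gene with an assigned peak, with 39 against 1.18, a fold of 5.52 and a q of 1.71e-05 (chromosome 2, 130179035 to 130179628).

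The Rbm peaks held from 14 anti-IFNAR1 fragments at Rbm41 to 93 at Rbm15, with a median fold of 4.98 (range 3.29 to 8.73). Rbm12b2 had the smallest q of them, 2.84e-10, with 39 fragments against a control IgG background of 0.378 and a fold of 8.73 (chromosome 4, 12089275 to 12089895). Rbm33 had 46 against 1, a fold of 7 and a ratio of 13.0 (2.22 to 525) on chromosome 5 from 28316746 to 28317357. Rbm39, which encodes a splicing factor related to U2AF, had 77 against 3.30 and a fold of 5.29 (chromosome 2, 156179604 to 156180489, q = 8.20e-08). At the other end Rbm5, a regulator of exons in apoptosis genes such as Fas, had the largest q, 0.0231, with 35 against 1.89 and a fold of 3.77 (chromosome 9, 107770615 to 107770916).

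Several Rbm members rest on thin counts or have roles outside splicing, and these are named after their values were seen. Rbm47, a cofactor of the RNA editing enzyme Apobec1, had 22 anti-IFNAR1 fragments and Rbm41 14, each against the genome rate of 0.132, so no control fragment was counted at the site. Their folds were 6.38 and 4.38. Rbm15, an adaptor of the complex that methylates adenosines in RNA, was among the best covered, with 93 against 6.61 and a fold of 3.59. Rbm25, a factor that acts with the U1 snRNP, had a fold of 5.45 from 35 against 1. Its summit lay 3566 bp upstream of the RefSeq start, while the file gave its peak a distance of 0 bp to a TSS. The remaining Rbm peaks, at Rbm4b, Rbm43, Rbm48, Rbm38 and Rbm6, had folds of 5.04, 4.98, 4.00, 3.57 and 3.29.

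Member peaks lay almost wholly at gene starts. The file placed 41 of 42 in its TSS section (97.6%, Wilson 95% interval 87.7 to 99.6), beside 72.4% of all listed peaks and 81.4% of the 5202 peaks at protein-coding genes. For the 38 members with a RefSeq start entry, the summit lay at a median of 21 bp downstream of the nearest start, with 24 within 250 bp. Summits fell on both sides, 18 upstream and 20 downstream, from 3566 bp upstream at Rbm25 to 471 bp downstream at Hnrnpf. The members lay on 16 chromosomes. The transcript that the file assigned was protein-coding for 27 of 42 peaks (64.3%), beside 73.5% of the peaks at protein-coding genes. For 7 of 42 members it was a transcript with a retained intron, beside 582 of the 5202 peaks at protein-coding genes. For 5 it was one marked for nonsense-mediated decay, beside 314 of those 5202 peaks. These labels are from the annotation and not from these data, and the difference was not tested.

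**Figure D4:**
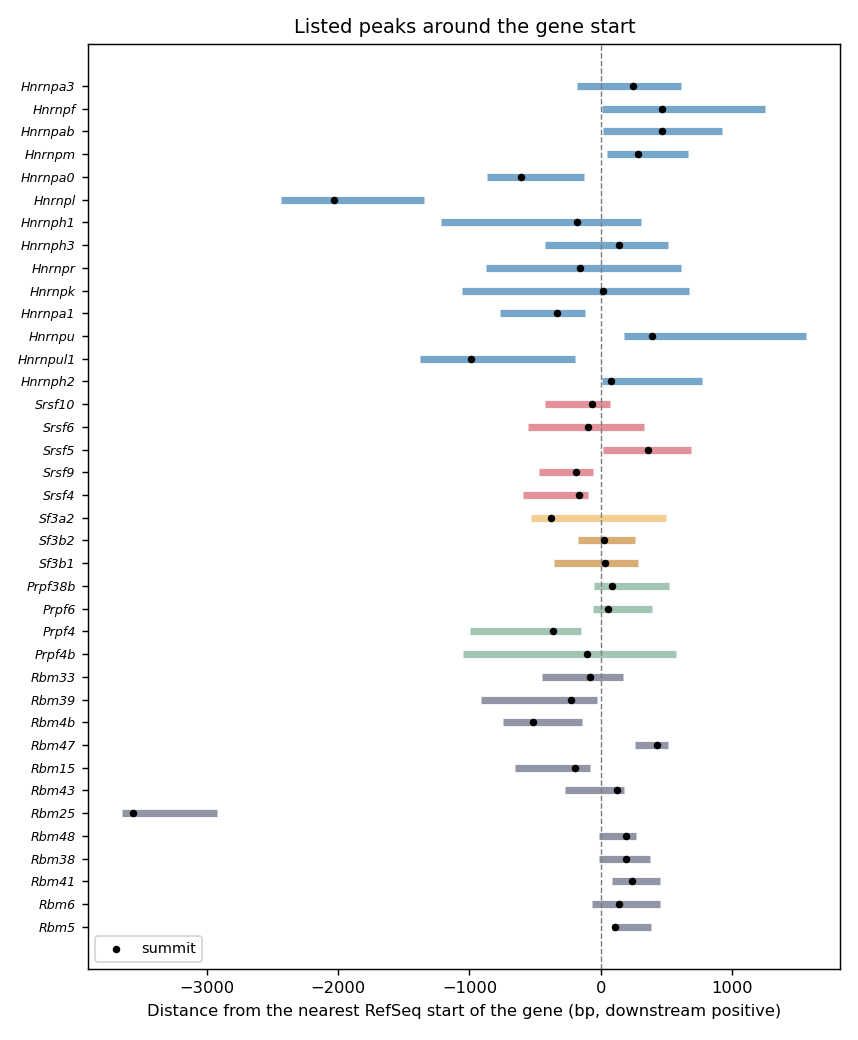
Extent of the listed peak (bar) and its summit (point) for the 38 members with a RefSeq start entry, in bp from the nearest RefSeq start of the gene, downstream positive, coloured by family. Of the summits, 24 lie within 250 bp of the start, and Rbm25 and Hnrnpl stand apart upstream at 3566 and 2028 bp. The file itself gave both of these peaks a distance of 0 bp to a TSS.

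A one-sided exact binomial test that counts the noise of both sides was then applied to each peak. It rests on the same counts that put each peak on the list and compares the libraries, not the treatments. At the site alone, 20.9% of all listed peaks stayed at or under the largest p of the list, 6.90e-05. For TSS peaks of protein-coding genes the share was 25.6%. Among the members, 15 of 42 (35.7%) stayed. Of these, 10 were Hnrnp genes, 4 Rbm genes (Rbm12b2, Rbm39, Rbm4b and Rbm15) and 1 was Prpf38b, while 0 of the 9 Srsf, Sf3a, Sf3b and Snrp peaks stayed. This test needs 39 fragments even with 0 control fragments, so the better covered families could pass it more readily. With the window that the caller used, 26 members (61.9%) stayed, beside 68.7% of the list and 65.5% of TSS peaks of protein-coding genes. Of these members, 13 were Hnrnp and 8 Rbm genes. Every member whose background was a window or genome average stayed in this form. The background was a count at the site for 50% of members, beside 37.2% of the list. The members' share was above both comparison shares in the first form and below both in the second. No conclusion about the members is drawn from the second form.

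The members' promoters were CpG-rich, as promoters in the list generally were. RefSeq windows that overlap the listed peak were found for 32 members (42 windows, of which some of the same gene overlap, as at Hnrnph1, Sf3b2 and Srsf4). They had a median of 27 CpG, beside 22 in 60 windows of genes under the rule with no assigned peak. The median was 24 in all 3732 windows overlapping a listed peak and 13 in all 21262 protein-coding windows. The overlap was as small as 1 base, at Hnrnpm, and motifs were counted over the whole window. A GC box was in 76.2% of member windows, beside 73.5% of windows overlapping listed peaks and 46.2% of all. The NF-Y box was in 50%, beside 40.4% and 38.2%, and occurred in 17 members, 10 of them Hnrnp genes.

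The ETS motif was in 7 of 42 windows (16.7%), beside 8.65% of windows overlapping listed peaks and 5.15% of all. The windows belonged to 5 genes, Prpf4b, Prpf6, Sf3b2, Srsf4 and Srsf5, none of them a Hnrnp or Rbm gene, and the overlapping windows of Sf3b2 and of Srsf4 count the same motif again. Letters of the interferon response type (GAAANNGAA) were in 4.76% of member windows, beside 5.55% of windows overlapping listed peaks and 8.14% of all. The member windows were those of Rbm15 and of Hnrnph2, where the match lies outside the peak. The STAT type (TTCNNNGAA) was likewise in 4.76%, beside 5.33% and 7.69%. AP-1 letters (TGANTCA) were in 7.14%, beside 3.8% and 6.99%, and a TATA box (TATAAA) in 4.76%, beside 6% and 12.6%. The NRF1 and YY1 motifs were in 1 member window each (2.38%), beside 6.38% and 3.78% of windows overlapping listed peaks. The CRE was in 0, beside 3.8%. These are matches of letters on either strand, some of them outside the listed peak, and not sites of binding.

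The wider splicing machinery, taken from 5 lists of genes outside the name rule, had a similar share to the members. Of 123 genes, 53 had a listed peak (43.1%, Wilson 95% interval 34.7 to 51.9), beside the 21.1% of all protein-coding genes, with a median fold of 4.10. SR-related proteins, SR kinases and exon junction genes had 15 of 23 listed (65.2%). Their smallest q values were at Son, a large nuclear speckle protein gene (122 anti-IFNAR1 fragments against 6 control IgG fragments, fold 5.07), at Clk1, a kinase that phosphorylates SR proteins (67 against 1.42, fold 8.25), and at Tra2b, an SR-like exon activator (91 against 3.30, fold 6.21). The hnRNP-like and tissue regulators had 16 of 28 (57.1%), led by Ptbp3 (fold 5.65), Raly (6.09) and Ptbp1 (4.16), the polypyrimidine tract binding genes among them being splicing repressors.

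The lists of core machinery differed in their shares. U2 and branch site factors had 8 of 16 listed (50%) with a median fold of 3.56, led by the helicase gene Ddx39b (4.77), the branch point binding gene Sf1 (3.59) and U2af2 (3.01), which recognises the polypyrimidine tract. Other snRNP proteins had 11 of 30 (36.7%) with a median fold of 6.33, led by Luc7l2, a U1-associated gene (120 against 3.54, fold 7.69), and by the U2AF-related genes Zrsr1 (9.73) and Zrsr2 (8.22). The Prp19 complex and catalytic step factors had 3 of 26 (11.5%), which were Cwc22 (fold 7.13), Cwc15 (3.97) and Ppil1 (3.48). The share of this last list was below the 21.1% of all protein-coding genes, but its Wilson interval of 4 to 29 contains 21.1%. Peaks near a start but assigned to a neighbour were not counted for these lists, and the differences between lists were not tested.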

How the data were processed

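Groups came from the treatment label of each sample. Per the submitters' processing notes, the tools were bedtools, BWA 0.7.9a, DESeq2, DiffBind 2.0.7 and MACS2 2.1.0.20150420 on build mm10, listed without role or order. Cut-site shifting and duplicate handling were not given in the sources used here. A table deposited by the authors is a peak list in MACS2 layout whose peak names state IFN against Ig, from which the direction was read, and no column of it carries a sample (0 unmatched sample columns).

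The signal column is the summit pileup and the ratio column the fold enrichment over local background, per the file headers, both computed by the authors. The −log10 p and −log10 q columns were also deposited by the authors, and q was computed from that column. Every pileup was a whole multiple of 0.283 (tolerance 0.005, largest difference 0.00498), which gave fragments and the depth ratio of 3.54. Fold, pileup and a pseudocount of 1 then gave the control background, for a fragment length of 236 bp and a genome rate of 0.132. Depth per sample is unknown.

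From these values, Python 3.11.15 with SciPy 1.17.1, pandas 2.3.3 and NumPy 2.4.6 gave exact conditional binomial tests and ratio intervals, Wilson 95% intervals, medians and counts, checked on simulated data. Where the background is a window average, the largest count compatible with it was used for the site. Where it is the genome rate, the window form of the test carries no noise on the control side. PCR copies are not independent molecules, so all intervals cover counting error only. Gene names, starts and promoter windows are from RefSeq GRCm38.p6, which had start entries for 88 of the 104 genes. Positions of peaks are those in the file, and whether starts count from 0 is not stated.

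The genes and lists were chosen with earlier results of these data known. The rule for named genes takes each member with several peaks or a peak outside the TSS section, the 3 smallest q and the largest q of each family, and the 3 smallest q of each wider list. The values of 1 member, which is in all counts, are not reported here. Alternatives covered q, pileup, section, distance, both exact tests, fold, biotype, pseudocount and RefSeq starts.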

Additional observations from a re-analysis of the deposited data

How the results depend on the processing

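The 42 members became 36 at a q of 0.01 and 41 with TSS peaks alone. They stayed 42 within 1 kb of the TSS or with the RefSeq biotype. By RefSeq starts, 47 of the 88 genes with an entry had a peak within 1 kb, peaks assigned to neighbours included. Among CpG-rich starts 40 of 65 genes did, a setting chosen after seeing the data. Both of these counts are over other sets than the 104 genes. Stricter limits keep fewer peaks by construction, and left 12 members for a minimum pileup of 20, 18 for a minimum fold of 5, 15 for the exact site test and 26 for the exact window test. The members' median fold of 4.72 became 5.29 for the exact site test, 5.77 for a minimum fold of 5 and 6.33 without the pseudocount. The median pileup of 15.4 became 25.7 for a minimum pileup of 20 and 22.3 for the exact site test. The TSS share of 97.6% became 100% for a q of 0.01, a minimum pileup of 20, a minimum fold of 5, the exact site test and a distance within 1 kb, since Hnrnpll dropped out or was counted by distance to a start. The wider pathway had 46 genes at a q of 0.01, against 53. No paired analysis was possible because no column carries a sample, and leaving out replicates was not run for the same reason. Control backgrounds, at a median of 2.80 fragments for the members, limit the precision of every fold.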
